A study of Rattus norvegicus with 6 samples.

Results

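The genes described here are 33 targets of the tumour suppressor p53 and genes of the DNA damage response. They were chosen by name, with earlier results of these data known, and read in the renal cortex of rats given anthraquinone or its vehicle. A probe was taken as a member's where its accession belonged to that symbol in the RefSeq gene table. Of the 33 genes, 28 had a matched probe, with 46 probes among the 61657 non-control probes of the array. After dim probes were left out, 27 genes with 41 probes were tested, among 11831 named genes tested in all. Tnfrsf10b, Eda2r, Ddb2, Ercc5 and Sesn1 had no matched probe and were not analysed here. Pmaip1, which encodes the death protein NOXA, had 1 probe, which was not well above background on any of the 6 arrays, and it was not tested.

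The animals were male Sprague-Dawley rats, Crl:CD(SD), 5 weeks old at purchase and kept on basal diet. For 4 weeks, 3 rats received anthraquinone, a tricyclic quinone, at 1000 mg/kg/day and 3 received the corn oil vehicle. RNA of each renal cortex was hybridised to 1 Agilent 1-colour array, and the series asks which genes anthraquinone changes in this tissue. The series describes the 3 rats of each group as biological replicates, so p-values measure the spread between animals. With 1 dose and 1 time there is no dose or time series, and 3 arrays a group limit the precision.

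A level is the log2 of a probe's background-corrected intensity minus the array's 75th percentile, so 0 marks a probe at that percentile. A difference is the mean level of the anthraquinone rats minus that of the corn oil rats, and ± gives its standard error. Probes differ in how brightly they bind, so the level of 1 probe against another is not read as a difference in RNA, and gaps between probes or sums over them serve only to compare rats. Each gene is represented by its brightest probe, and p-values come from limma across all 32663 gene entries tested, with Benjamini-Hochberg adjustment and a threshold of 0.05. Whole cortex was measured, so fewer cells of a type and less RNA per cell cannot be told apart.

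In a damaged cell, kinases that sense DNA breaks or stalled replication free p53 from its ubiquitin ligase Mdm2, and the stabilised protein binds paired 10-base sequences near its targets. Those targets stop the cell cycle, drive mitochondrial or receptor-mediated death, repair DNA, or alter metabolism, while Mdm2 and Ccng1 feed back to lower p53. In the kidney, p53 and p21 are known for their part in the response of proximal tubule cells to toxic and ischaemic injury.

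The p53 response element was looked for in the RefSeq promoter windows of the members (assembly GRCr8, 250 bases before to 50 after each gene's start), because it is the sequence that defines direct targets. A site was 2 decamers of the p53 consensus, 0 to 13 bases apart, with at most 2 mismatches over the 20 bases and the C and G of each core kept. The consensus reads the same on both strands, so 1 search covers both. Such a match lay in 6 of the 27 windows found for 26 members (22.2%) and in 1181 of all 33469 windows (3.53%). A match is a description of the letters and not a measured binding site, and a window without one says only that these letters are not there. The 6 matches follow, 5′ to 3′ on the gene's strand, with the decamers in capitals and flanking bases or the spacer in lower case.
Cdkn1a, chr20:7150731-7150750, plus strand: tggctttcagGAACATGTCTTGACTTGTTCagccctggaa
Ccng1, chr10:25685099-25685118, minus strand: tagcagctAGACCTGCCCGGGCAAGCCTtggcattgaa
Gadd45a, chr4:97486838-97486868, minus strand: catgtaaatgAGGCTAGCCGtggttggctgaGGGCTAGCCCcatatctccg
Pidd1, chr1:205971567-205971590, minus strand: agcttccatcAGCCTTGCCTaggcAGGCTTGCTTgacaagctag
Aen, chr1:142224503-142224522, plus strand: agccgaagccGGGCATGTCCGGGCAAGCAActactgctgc
Sesn1, chr20:46948534-46948556, plus strand: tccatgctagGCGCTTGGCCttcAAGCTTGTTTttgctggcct

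The Cdkn1a, Ccng1, Gadd45a and Pidd1 sites had 1 mismatch and those of Aen and Sesn1 had 2. The Cdkn1a decamers were adjacent and lay at -201 to -182 from the start, and those of Ccng1 at -242 to -223. The Gadd45a match was split by a spacer of 11 bases and lay at -69 to -39. The Pidd1 match lay within the transcript, at 11 to 34, with a spacer of 4. Sesn1 was the 1 gene of the 6 with no matched probe.

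Across the 27 tested members, most differences were above 0 and small, and none passed the adjusted threshold. Because members and lists were chosen with earlier results of these data known, shares set beside all entries are descriptions and not tests. At that threshold limma called 5 of all 32663 entries higher (0.0153%) and 4 lower (0.0122%). Without adjustment, 5 members were higher at p under 0.05 (18.5%), against 9.47% of all entries, and these were the stress kinase gene Plk3, Gadd45a, the repair gene Mgmt and the death genes Tp53inp1 and Bax. At the same threshold 1 member, the death gene Ei24, was lower, against 7.65% of all entries. The 3 anthraquinone rats lay above all 3 corn oil rats for 6 members (22.2%) and below them for 1, against 15.0% and 10.2% of all entries. Differences were above 0 for 20 members and below 0 for 7, so 74.1% were positive against 51.6% of all entries. The median difference was 0.11, against 0.01 over all entries, and members ranged from -0.23 for Ei24 to 1.19 for Plk3. The lowest adjusted p among the members, that of Plk3, was 0.204. Without anthraquinone rat 3, 3 members were higher at unadjusted p under 0.05, with 6.29% of all entries higher in that fit, and without anthraquinone rat 1, corn oil rat 2 or corn oil rat 3 none was lower.

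**Figure D1:**
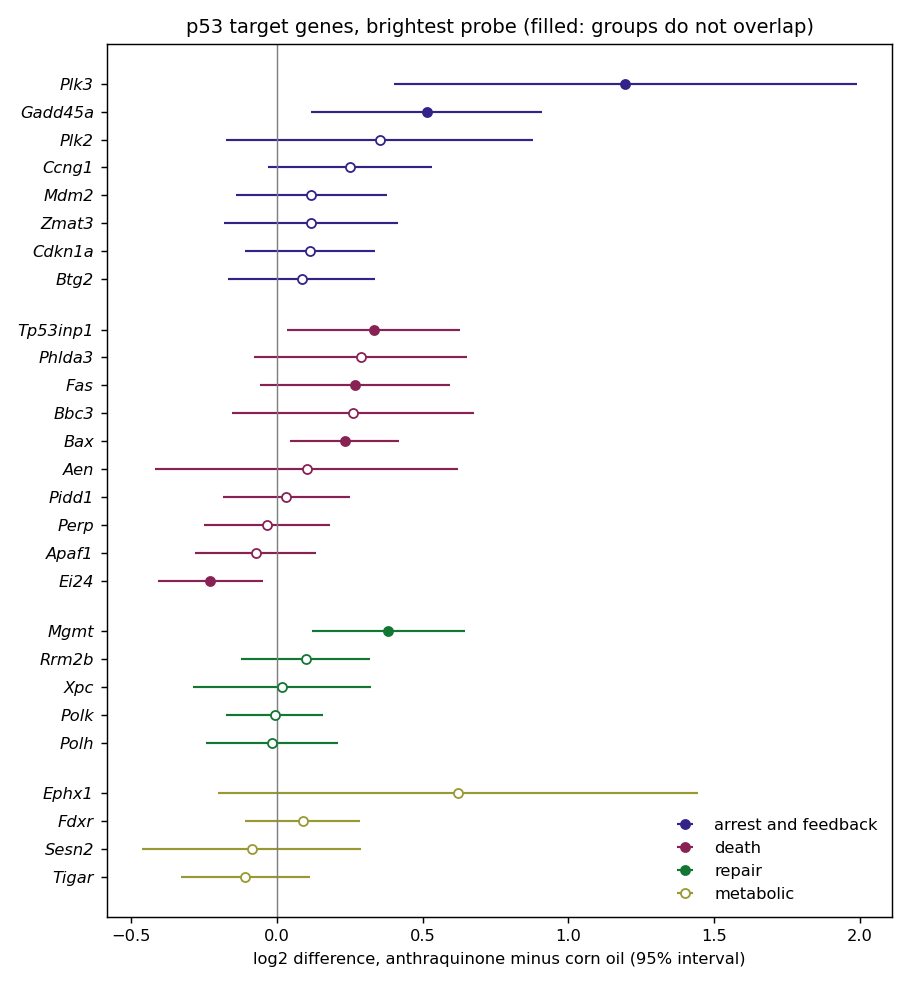
Difference between anthraquinone and corn oil for each tested member (log2 units, x axis), grouped by role, with bars for the 95% interval from limma and filled points where the 3 rats of each group did not overlap. Plk3 stands farthest to the right at 1.19, and Ei24 is the 1 filled point left of 0. All 8 arrest and feedback genes lie right of 0, against 51.6% of all entries.

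The 8 arrest and feedback genes all had differences above 0, against 51.6% of all entries. They ran from 0.08 to 1.19 with a median of 0.18. Of them, 2 were higher at p under 0.05 without adjustment (25%, against 9.47% of all entries), Plk3 and Gadd45a. The groups did not overlap in either (25%, against 15.0% of all entries on the higher side). With so few genes in a role, such counts are not read as a result about the role. Plk3 encodes a polo-like kinase induced by DNA damage and oxidative stress. Its level was -0.62, -0.21 and -0.93 in corn oil rats 1, 2 and 3 and 0.44, 1.26 and 0.12 in anthraquinone rats 1, 2 and 3. Every anthraquinone rat was above every corn oil rat, with rat 2 the highest. The difference was 1.19 ± 0.33 (2.29-fold, 95% interval 0.40 to 1.99, adjusted p = 0.204). The dimmer Plk3 probe read -4.43, -4.00 and -4.67 under corn oil and -3.72, -2.74 and -3.67 under anthraquinone, a difference of 0.99 ± 0.31 (adjusted p = 0.216). Anthraquinone rat 2 was again the highest, and the groups again did not overlap.

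Gadd45a encodes a small stress sensor that binds the Cdk1 complex and helps to hold cells before mitosis. Its level was 3.44, 3.40 and 3.39 in the corn oil rats and 3.55, 4.07 and 4.14 in the anthraquinone rats. The corn oil rats lay close together, and anthraquinone rat 1 was just above them while rats 2 and 3 were clearly higher. The difference was 0.51 ± 0.16 (1.43-fold, 95% interval 0.12 to 0.91, adjusted p = 0.225). Of the remaining arrest genes, Plk2, a related polo-like kinase, differed by 0.35 ± 0.22. Zmat3, a zinc-finger protein that binds RNA, differed by 0.12 ± 0.12 and Btg2, an antiproliferative cofactor of messenger RNA decay, by 0.08 ± 0.10. The groups overlapped in these 3 genes.

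Cdkn1a encodes p21, the inhibitor of cyclin-dependent kinases through which p53 arrests the cell cycle, and its 3 probes gave different readings. The brightest, A_64_P123895, read 4.53, 4.79 and 4.73 in corn oil rats 1 to 3 and 4.82, 4.79 and 4.77 in anthraquinone rats 1 to 3. The groups overlapped, and the difference was 0.11 ± 0.09 (95% interval -0.11 to 0.34, adjusted p = 0.561). Probe A_44_P914438 read 0.98, 1.51 and 0.90 under corn oil and 1.75, 2.82 and 2.88 under anthraquinone. All 3 anthraquinone rats were above the corn oil rats, and rats 2 and 3 were farther above than rat 1. The difference was 1.35 ± 0.34 (2.56-fold, 95% interval 0.53 to 2.18, unadjusted p = 0.00666, adjusted p = 0.187 over all 41310 probes). Probe A_44_P515275 was dim and read -5.51, -5.09 and -6.43 under corn oil against -4.59, -3.44 and -3.46 under anthraquinone. It was well above background in 1 of 3 corn oil rats and in 3 of 3 anthraquinone rats, so it entered the test through the anthraquinone group. The corn oil level of this probe is therefore mostly a background reading, and no fold is given for it. The difference in measured level was 1.85, and 0.63 with another background correction, normexp with an offset of 50.

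The disagreement between the Cdkn1a probes was also read within each array. Probe A_44_P914438 minus the brightest probe was -3.54, -3.28 and -3.83 in the corn oil rats and -3.07, -1.97 and -1.89 in the anthraquinone rats. The gap was narrower in every anthraquinone rat, with a 2-sided exact permutation p of 0.1, the smallest that 3 rats against 3 allow. Among probes above background on all 6 arrays, a restriction added after seeing the data, the 2 Cdkn1a probes had differences 1.24 apart, and 0.279% of 5736 named genes with several such probes had a range as wide. The plain mean of these 2 differences was 0.73. With the dim probe included it was 1.11, which did not pass the adjusted threshold. That higher value rests in part on the dim probe's background reading under corn oil and is not read as a size of change. Where the probes bind along the transcript was not analysed here.

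Ccng1 encodes cyclin G1, which guides a phosphatase to Mdm2, and its 2 probes also disagreed. The brighter, A_44_P235919, read 2.17, 1.96 and 1.85 in the corn oil rats and 2.30, 2.34 and 2.10 in the anthraquinone rats. Anthraquinone rat 3 fell within the corn oil range and the other two were above it, and the difference was 0.25 ± 0.12 (95% interval -0.03 to 0.53, adjusted p = 0.330). The dimmer, A_44_P367761, read -0.51, -0.54 and -0.73 under corn oil and 1.89, 2.05 and -0.26 under anthraquinone. Anthraquinone rats 1 and 2 stood far above the corn oil rats, while rat 3 lay just above them. The difference was 1.82 ± 0.60 (3.54-fold, 95% interval 0.36 to 3.29, adjusted p = 0.229). Without anthraquinone rat 3 it was 2.56 ± 0.11 with an adjusted p of 0.0242, so this probe passed the threshold only with that array left out, of the 6 that were left out in turn.

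Read within each array, the dimmer Ccng1 probe minus the brighter was -2.69, -2.50 and -2.58 under corn oil and -0.40, -0.30 and -2.35 under anthraquinone. Anthraquinone rat 3 was near the corn oil rats in this measure, and the 2-sided exact permutation p was 0.1, again the smallest possible. The probes' differences were 1.57 apart, a range met or passed by 0.157% of the same 5736 genes. The mean of both probes gave a difference of 1.04, which did not pass the adjusted threshold.

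Mdm2, the ubiquitin ligase that p53 induces against itself, had 2 probes with differences of the same sign. The brighter, A_44_P634946, read 0.94, 0.95 and 1.14 under corn oil and 1.13, 0.98 and 1.28 under anthraquinone. These values overlapped, and the difference was 0.12 ± 0.11 (95% interval -0.14 to 0.38, adjusted p = 0.607). The dimmer, A_43_P16885, read -1.37, -1.30 and -1.24 under corn oil and -1.04, -0.95 and -1.04 under anthraquinone. Here the groups did not overlap and both were narrow, with a difference of 0.29 ± 0.07 (1.22-fold, 95% interval 0.12 to 0.47, unadjusted p = 0.00659, adjusted p = 0.187). The gap between both probes within an array was -2.31, -2.25 and -2.38 under corn oil and -2.17, -1.93 and -2.32 under anthraquinone (2-sided exact permutation p = 0.3).

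**Figure D2:**
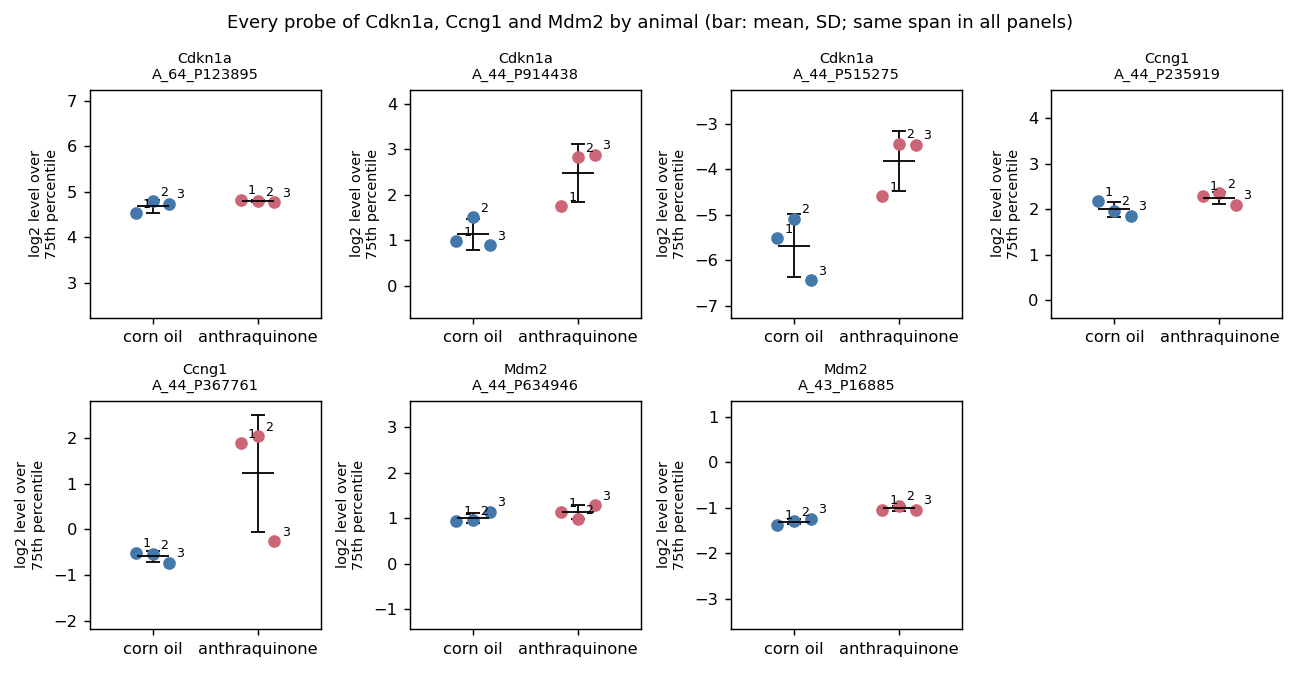
Level of every probe of Cdkn1a, Ccng1 and Mdm2 in each rat (log2 over the array's 75th percentile, y axis), 1 panel a probe with the same span of axis, with numbered points for rats (blue corn oil, red anthraquinone) and bars for the group mean and SD. The brightest probes differ by 0.11 for Cdkn1a, 0.25 for Ccng1 and 0.12 for Mdm2, less than the dimmer probes of the same genes, and anthraquinone rat 3 of the dimmer Ccng1 probe lies close to the corn oil rats at -0.26.

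Over all members, 12 genes had at least 2 tested probes. The probes' differences had 1 sign in 8 of them (66.7%), against 71.9% of the 6088 named genes with several tested probes. The 4 genes with opposite signs were Aen, Apaf1, Fdxr and Perp, and the median range between probes was 0.19, against 0.10 for those named genes. Counted by probe, 10 of the 41 tested probes were higher at unadjusted p under 0.05 and 1 was lower, against 9.22% and 8.15% of all 41310 probes. The 10 probes came from 8 genes, so they are not 10 separate members. The 3 anthraquinone rats lay above all corn oil rats for 11 member probes and below them for 2, against 14.5% and 10.7% of all probes. These counts include the Cdkn1a probe that entered through 1 group, and without it 9 probes of 40 were higher at that p and 10 did not overlap on the higher side. None of the 41 probes passed the adjusted threshold, at which 0.0194% of all probes were higher and 0.0145% lower.

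Among the 10 tested death genes, 7 differences were above 0 (70%, against 51.6% of all entries) and 3 below, with a median of 0.17. Tp53inp1, a stress-induced nuclear protein that also takes part in autophagy, had the highest of them. Its level was -1.61, -1.31 and -1.32 under corn oil and -1.23, -0.94 and -1.08 under anthraquinone. All anthraquinone rats were above the corn oil rats by a narrow margin, and the difference was 0.33 ± 0.12 (1.26-fold, 95% interval 0.04 to 0.63, adjusted p = 0.256). Bax, which forms pores in the outer mitochondrial membrane, read 0.73, 0.69 and 0.67 under corn oil and 1.02, 0.84 and 0.93 under anthraquinone. The groups were narrow and did not overlap, with a difference of 0.23 ± 0.08 (1.17-fold, 95% interval 0.04 to 0.42, adjusted p = 0.236).

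Ei24, a membrane protein of the endoplasmic reticulum, was the 1 member lower at unadjusted p under 0.05. Its level was -0.44, -0.40 and -0.34 under corn oil and -0.69, -0.56 and -0.60 under anthraquinone. Every anthraquinone rat was below every corn oil rat, and the difference was -0.23 ± 0.07 (1.17-fold lower, 95% interval -0.41 to -0.05, adjusted p = 0.229). The death receptor gene Fas read -2.57, -2.80 and -2.59 under corn oil and -2.54, -2.47 and -2.13 under anthraquinone. Its groups did not overlap, although anthraquinone rat 1 was only just above the corn oil rats, and the difference was 0.27 ± 0.13 (unadjusted p = 0.0911, adjusted p = 0.362).

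On their brightest probes, the other death genes overlapped between groups. Phlda3, a pleckstrin-homology protein that restrains Akt, differed by 0.29 ± 0.15, and Bbc3, which encodes the pro-death protein PUMA, by 0.26 ± 0.17. Aen, an apoptosis-enhancing nuclease, differed by 0.10 ± 0.21. A dimmer Aen probe gave 0.14 and overlapped. Another gave -0.16 ± 0.07, with every anthraquinone rat below every corn oil rat. Pidd1, the death-domain adaptor of the PIDDosome, differed by 0.03 ± 0.09, Perp, a membrane protein of desmosomes, by -0.03 ± 0.09, and Apaf1, the core of the apoptosome, by -0.07 ± 0.09. The signs of Aen, Pidd1 and Perp turned under at least 1 other setting. For Pmaip1 the levels were -8.03, -8.22 and -8.21 under corn oil and -7.52, -7.42 and -7.67 under anthraquinone, all not well above background, and no fold is given.

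Of the 5 repair genes tested, Mgmt was the 1 that passed p under 0.05 without adjustment (20%, against 9.47% of all entries higher). It encodes the methyltransferase that removes alkyl groups from guanine. Its level was 2.07, 2.02 and 2.01 under corn oil and 2.43, 2.22 and 2.59 under anthraquinone. All 3 anthraquinone rats were above the tightly grouped corn oil rats, with a difference of 0.38 ± 0.11 (1.30-fold, 95% interval 0.12 to 0.64, unadjusted p = 0.0118, adjusted p = 0.209).

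**Figure D3:**
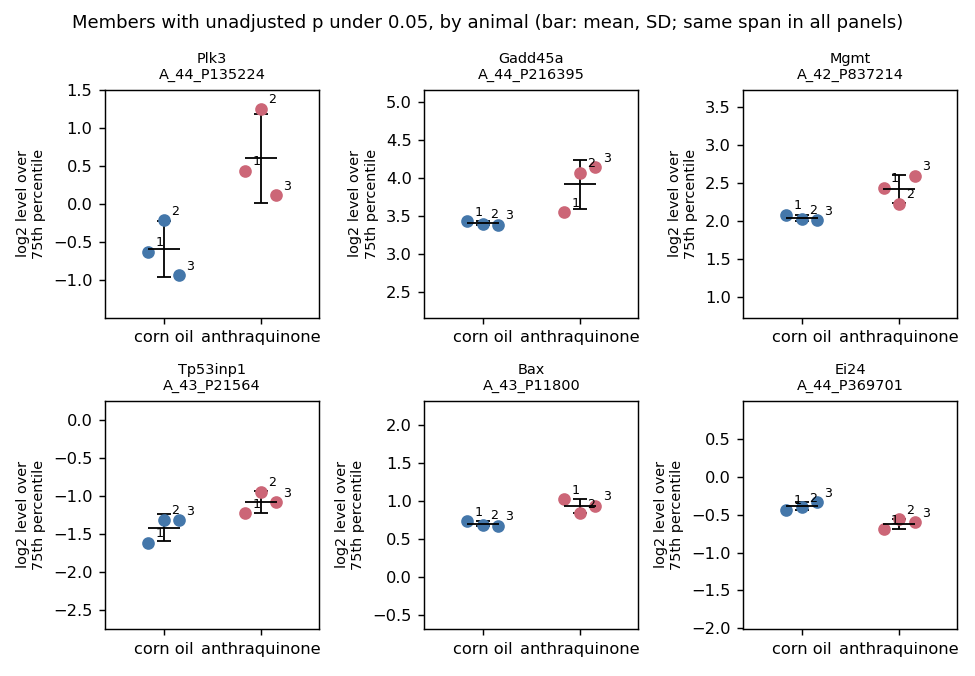
Level of the 6 members at unadjusted p under 0.05 in each rat (log2 over the array's 75th percentile, y axis), 1 panel a gene with the same span of axis, with numbered points for rats (blue corn oil, red anthraquinone) and bars for the group mean and SD. The groups do not overlap in any panel, Plk3 has the widest gap between means, 1.19, and Ei24 is the 1 gene with the anthraquinone rats below, by -0.23.

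On their brightest probes, the other repair genes were near 0 and overlapped. Rrm2b, the p53-inducible subunit of ribonucleotide reductase, differed by 0.10 ± 0.09. Xpc, which recognises distorted DNA in nucleotide excision repair, differed by 0.02 ± 0.13 (95% interval -0.29 to 0.32). Polh, a polymerase that copies past damaged bases, read -2.01, -1.97 and -2.14 under corn oil and -2.05, -2.18 and -1.95 under anthraquinone. Its rats were interleaved, with a difference of -0.02 ± 0.09 (95% interval -0.24 to 0.21). Polk, another such polymerase, differed by -0.01 ± 0.07 (95% interval -0.17 to 0.16), and by -0.33 ± 0.18 on its dimmer tested probe. These intervals bound the difference and do not show that the groups are alike, and the signs of Xpc, Polh and Polk turned under at least 1 other setting.

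None of the 4 metabolic targets passed p under 0.05, against 9.47% of all entries higher and 7.65% lower. Their median difference was 0.00. Ephx1, the microsomal epoxide hydrolase, which is also known as a gene induced by foreign chemicals, had the highest. Its level was 3.46, 3.20 and 3.82 under corn oil and 3.51, 4.04 and 4.79 under anthraquinone. Anthraquinone rats 2 and 3 were above the corn oil rats while rat 1 lay among them, and the difference was 0.62 ± 0.34 (1.54-fold, 95% interval -0.20 to 1.44, adjusted p = 0.396). It was 0.28 without anthraquinone rat 3 and 0.92 without anthraquinone rat 1.

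Tigar, a phosphatase that lowers glycolytic flux, had the lowest metabolic difference. Its level was -0.13, -0.01 and -0.22 under corn oil and -0.13, -0.31 and -0.24 under anthraquinone. The ranges overlapped, and the difference was -0.11 ± 0.09 (adjusted p = 0.579). Sesn2, a sestrin that restrains mTORC1, differed by -0.09 ± 0.15, and Fdxr, the mitochondrial ferredoxin reductase, by 0.09 ± 0.08. Both overlapped, and the sign of each turned under 1 other setting.

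The spread among members was also read by animal. With each gene centred on its mean over the 6 rats, the median over the 27 members was -0.05, -0.06 and -0.05 in corn oil rats 1 to 3 and 0.02, 0.02 and 0.11 in anthraquinone rats 1 to 3. Over all entries the same medians lay between -0.02 and 0.01. Anthraquinone rat 3 therefore had the highest member median, and all 3 anthraquinone rats were above the corn oil rats. Within the anthraquinone group, rat 3 was the highest for 14 members, rat 2 for 8 and rat 1 for 5. The lowest was rat 1 for 9, rat 2 for 10 and rat 3 for 8.

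The regulators of p53 and further damage-response genes were read from 7 other lists, with 101 genes tested of 127 listed. None of these genes passed the adjusted threshold. At unadjusted p under 0.05, 10 were higher (9.90%), against 9.47% of all entries, and 6 were lower, against 7.65%. The 6 lower genes included the p53 target Rprm, which entered the test through the corn oil group alone. The median difference of the 101 genes was 0.02, against 0.01 over all entries. Of p53 and its upstream regulators, 15 of 20 were tested and none passed p under 0.05 in either direction, with a median difference of 0.01.

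Among 24 tested further p53 targets, the median difference was 0.06. At unadjusted p under 0.05, 2 of them were higher (8.33%), against 9.47% of all entries, and 3 were lower, against 7.65%. The 3 lower genes included Rprm, whose level under anthraquinone was a background reading. Gdf15, a secreted stress cytokine that other stress pathways also induce, had the largest difference of any gene in these lists. Its level was -0.38, -0.15 and -0.22 under corn oil and 0.78, 1.28 and 2.11 under anthraquinone. All anthraquinone rats were well above the corn oil rats, with a difference of 1.64 ± 0.32 (3.11-fold, unadjusted p = 0.00211, adjusted p = 0.175). A further Gdf15 probe gave 1.71, and the difference lay between 1.28 and 1.94 when each array was left out in turn. Ckap2, a spindle protein, differed by 0.49 ± 0.14, and its 3 probes lay between 0.46 and 0.54.

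On the lower side of that list, Rprm, a mediator of G2 arrest, differed by -1.05 ± 0.26. Its probe was not well above background in any anthraquinone rat, so the level there is a bound, at least 1.27-fold lower, and with normexp the difference was -0.03. Tp53i11, a p53-inducible gene, differed by -0.47 ± 0.15, while its other probe gave -0.11.

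The repair pathways outside the members were centred near 0, with medians of 0.01 for nucleotide excision repair, 0.02 for base excision repair and -0.01 for translesion synthesis and crosslink repair. Apex1, the endonuclease that cuts at sites that have lost a base, had the largest difference of the 3 lists. It read 4.98, 4.96 and 4.96 under corn oil and 5.27, 5.56 and 5.74 under anthraquinone. The groups did not overlap, the difference was 0.55 ± 0.13 (1.47-fold, adjusted p = 0.191), and its other probe gave 0.48. Nudt1, which clears oxidised nucleotides, differed by 0.18 ± 0.07, and Ercc6, which couples repair to transcription, by 0.20 ± 0.08. Parp2, a sensor of strand breaks, differed by -0.21 ± 0.07, while its other probe gave -0.05 and normexp -0.03. Of the 10 translesion and crosslink genes, none passed p under 0.05.

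Of 15 intrinsic apoptosis genes outside the members, 3 differences were above 0 (20%, against 51.6% of all entries) and 12 below, with a median of -0.06. Mcl1, which holds back mitochondrial death, differed by 0.25 ± 0.10. Bmf, a BH3-only death gene, differed by -0.34 ± 0.14, with overlapping groups. At unadjusted p under 0.05, 1 gene of that list was higher (6.67%) and 2 were lower, against 9.47% and 7.65% of all entries. The adjusted p was 0.284 for Mcl1 and 0.289 for Bmf.

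Cell cycle genes that p53 is known to repress through p21 lay mostly above 0. Of 12 tested, 10 differences were positive (83.3%), against 51.6% of all entries, with a median of 0.14. At unadjusted p under 0.05, 4 were higher (33.3%), against 9.47% of all entries, and none was lower, against 7.65%. Ccnb2, a mitotic cyclin, read -2.84, -2.92 and -2.88 under corn oil and -2.36, -2.51 and -2.38 under anthraquinone. The groups were narrow and apart, with a difference of 0.46 ± 0.08 (1.38-fold, unadjusted p = 0.000846, adjusted p = 0.140). Ccnb1, another mitotic cyclin, read -2.89, -2.92 and -2.92 under corn oil and -2.09, -2.66 and -2.42 under anthraquinone, with anthraquinone rat 1 the highest. That difference was 0.52 ± 0.15 (adjusted p = 0.211).

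**Figure D4:**
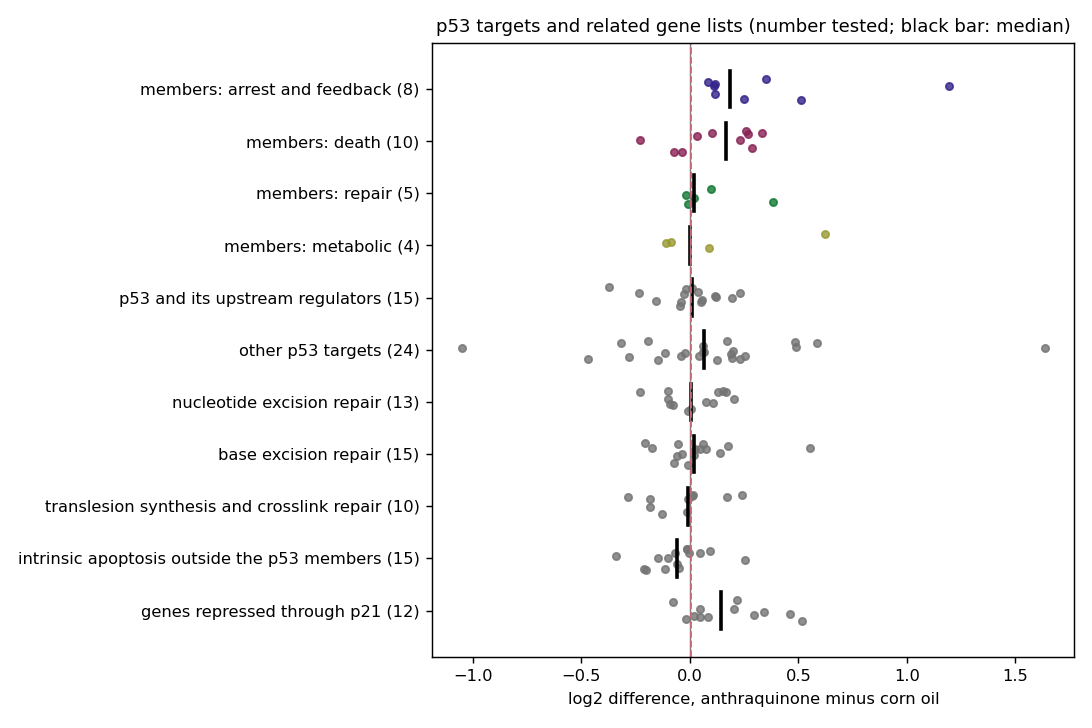
Differences between anthraquinone and corn oil (log2 units, x axis) for every tested gene of the 4 member roles and the 7 other lists, with a point for each gene, a black bar for each list's median and a dashed red line for the median of all entries, 0.01. Medians lie between -0.06 for intrinsic apoptosis and 0.18 for arrest and feedback, and Gdf15 and Plk3 are the points farthest right, at 1.64 and 1.19.

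The tissue label was checked against markers of kidney and of other cells that a cortex sample can hold. All 6 proximal tubule markers were tested, their summed level ranged from 1030 to 1162 times the 75th percentile under corn oil and from 1032 to 1222 under anthraquinone, and none passed p under 0.05. Of the red blood cell markers, 4 of 5 were tested and all 4 differences were above 0. At unadjusted p under 0.05, 3 of the 4 were higher, against 9.47% of all entries. The summed level of the 4 was 193 to 235 under corn oil and 290 to 386 under anthraquinone. It did not overlap between groups, as for Plk3, Gadd45a, Mgmt, Tp53inp1 and Bax. Its part in those differences was not tested. Leukocyte markers were tested for 7 of 9 genes, of which 2, Csf1r and Cd79b, were lower at that p, against 7.65% of all entries. Cd79b was well above background in 3 corn oil rats but 1 anthraquinone rat, so it entered the test through the corn oil group. The leukocyte markers summed to 3.57 to 3.98 under corn oil and 3.21 to 4.08 under anthraquinone. Of the podocyte markers 1 of 4, and of the distal tubule and collecting duct markers 1 of 5, were lower at that p, and no inner medulla, endothelial or adipocyte marker tested passed it. The adrenal genes Cyp11b1, Cyp11b2 and Star were too dim to test, and the fourth adrenal marker, Cyp21a1, was lower at that p, by -0.45.

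The arrays' 75th percentile of intensity lay between 903 and 1191 under corn oil and between 844 and 880 under anthraquinone, and 68.7 to 70.7% and 64.2 to 66.1% of probes were well above background. Both measures were higher in every corn oil rat, and their part in the differences of dim probes was not tested. Slide and row were taken from the barcode in the array headers, read as a slide code followed by a row. On that reading, corn oil rat 1 was alone on 1 slide and the other 5 rats shared another. On the shared slide both corn oil rats were in row 1 and the 3 anthraquinone rats in row 2, so within that slide row and treatment cannot be told apart. With slide as a block, which leaves corn oil rat 1 without weight, 5 members were higher and 1 lower at unadjusted p under 0.05, with 7.05% of all entries higher.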

How the data were processed

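The deposited scanner files hold each spot's linear intensity, which Agilent's software (Feature Extraction 10.7 in the submitters' processing notes) had already corrected for background and spatial trend, per the file headers. The authors also deposited a value table, whose intensity columns equalled the processed signal divided by the array's 75th percentile (90.7 to 97.0% of probes within 0.01 log2), without centring by gene. Its column medians were 0.109, 0.113 and 0.114 for corn oil and 0.109, 0.111 and 0.110 for anthraquinone, and no header gives its scale.

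Groups came from the sample titles. Processed signals were divided by the 75th percentile of their array and put on the log2 scale, without control and outlier spots. Testing required that every array of 1 group or both was well above background, as the software calls it (41310 probes). Accessions were matched to the RefSeq table of assembly GRCr8, which served only for names and promoter sequences because the array was designed on an older assembly. It named 27460 of 61657 probes, with 15284 symbols. The brightest probe stood for a gene, and unnamed probes for themselves.

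The comparison used limma 3.58.1 in R 4.3.3 (lmFit, eBayes, group as the 1 term), tested on simulated data. Members and lists were chosen with earlier results of these data known. The rule for genes named takes every member, with each rat's value for Cdkn1a, Ccng1, Mdm2, members at unadjusted p under 0.05 and the extremes of each role. It adds Gdf15 and up to 2 genes per direction of each other list, and some genes that met the rule are not reported here. Values of Fas by rat, and of Pmaip1, were added after they were seen. Alternatives were other scalings, background correction (normexp, on median spot signals), filters, probe summaries, variance models, blocks, thresholds, the authors' table and each array left out. Same-numbered rats of both groups had deviations correlated at 0.03, -0.06 and -0.01, and differently numbered rats between -0.10 and 0.11. These correlations cannot exclude a pairing. The sample titles state none, and none was used in the main comparison.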

Additional observations from a re-analysis of the deposited data

How the results depend on the processing

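The median member difference stayed between 0.09 and 0.15 over 18 alternatives. Slide as a block and the fit without corn oil rat 1 gave the same values, so the same fit is counted under both names. Members higher at unadjusted p under 0.05 numbered 5, but 8 with probes of a gene averaged (9.20% of all entries) and 8 with normexp (11.7%). They numbered 3 to 5 with each array left out, the 3 without anthraquinone rat 3. The averaged value of Cdkn1a includes its dim probe, which entered the test through the anthraquinone group. Members lower numbered 1, but 0 with normexp and 0 to 1 with each array left out, the 0 without anthraquinone rat 1, corn oil rat 2 or corn oil rat 3. With each array left out, members without overlap on the higher side rose from 6 to between 8 and 10, highest without corn oil rat 3. On the lower side they went from 1 to between 1 and 3, highest without anthraquinone rat 1. Fewer rats overlap less, and the share of all entries in those fits is not given here. These counts are therefore not read as a result about the members. With no filter on dim probes 1 member, Pmaip1, passed the adjusted threshold, as did Gdf15 (adjusted p = 0.0276) and Ccnb2 (0.0199), and 6611 of all entries did, against 9. That count was 58 with an intensity trend in eBayes, 16 with normexp, 6 with median scaling, 2 with slide as a block, 1 with the replicate block and 1 to 25 with each array left out. With the replicate number as a block, 7 members were higher (7.21% of all entries) and 1 lower at unadjusted p under 0.05 and 0 passed the adjusted threshold.

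Of 880 values of single genes or probes, 22 changed sign, in 8 members whose differences were near 0. Both counts hold slide as a block and the fit without corn oil rat 1, which are the same fit. The Perp difference, -0.03 as reported, was 0.00407 with array weights, 0.053 with probes averaged, 0.020 with slide as a block and -0.081 to 0.020 with each array left out (above 0 without corn oil rat 1 or anthraquinone rat 3). The Polh difference was 0.012 with median scaling, 0.00151 with normexp, 0.00363 with quantile normalization and -0.073 to 0.043 with each array left out (above 0 without anthraquinone rat 2 or corn oil rat 2). The Polk difference was 0.021 with median scaling, 0.024 with normexp, 0.0057 with slide as a block and -0.032 to 0.020 with each array left out (above 0 without corn oil rat 1 or anthraquinone rat 1). With slide as a block Pidd1 was -0.038 and Xpc -0.097, and with each array left out they were -0.038 to 0.082 and -0.097 to 0.13 (below 0 without corn oil rat 1). Fdxr was -0.015 with probes averaged. With each array left out Aen was -0.090 to 0.26 and Sesn2 -0.21 to 0.036, both turned without anthraquinone rat 2. The cause was not tested. Probes near background, such as the dimmest Cdkn1a probe, limit what these arrays can show.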
